A study of Homo sapiens with 12 samples.

Results

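Small nucleolar RNA (snoRNA) host genes were examined in pancreatic neuroendocrine tumor (pNET) cells in which MUC1 had been silenced. The 10 members, GAS5, SNHG1, SNHG5, SNHG6, SNHG7, SNHG8, SNHG12, SNHG15, ZFAS1 and EPB41L4A-AS1, were chosen by symbol, and all 10 had a row among the 28008 genes of each deposited count table. The study performed RNA-seq on QGP-1 and BON-1 cells, established lines from pNETs, each carrying a tet-inducible MUC1shRNA in pLKO-tet-puro, a short hairpin RNA directed at MUC1 and expressed only once doxycycline (DOX) is added. QGP-1/tet-MUC1shRNA cells were grown in an RPMI medium and BON-1/tet-MUC1shRNA cells in DMEM/F-12. Each line received vehicle, which was 0.1% DMSO, or DOX at 500 ng/mL, for 7 days, in 3 cultures per group, so that 4 groups gave 12 libraries. In these libraries a single hairpin sequence was used, and no library of a line with a control hairpin and DOX was analysed here. The study used another MUC1 hairpin, and a control hairpin with DOX, in immunoblots. In the libraries silencing of MUC1 and DOX itself cannot be told apart. Line, culture medium and count table also cannot be told apart.

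snoRNAs guide the chemical modification of ribosomal RNA, box C/D snoRNAs its methylation and box H/ACA snoRNAs its pseudouridylation. In human cells most of them are cut out of introns, and a host gene is the transcript that carries them. In many host genes the snoRNA is the conserved product, whereas the spliced exons code for no long protein and are removed in the cytoplasm by nonsense-mediated decay, a pathway that depends on translation. Many host genes, like ribosomal protein genes, begin with a terminal oligopyrimidine (TOP) tract, a C at the transcription start followed by a run of pyrimidines, which links their translation to growth signals through mTOR. GAS5 was named for its accumulation in growth-arrested cells.

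The region around the transcription start is shown because the start base and its pyrimidine run are the sequence feature for which these genes are best known. RefSeq start sites (GRCh38.p14) were at hand for 8 of the 10 members. The windows hold 40 bases before the start and 30 from the start onwards, 5′ to 3′ on the strand of the gene. Capitals mark a C at the start with the pyrimidines that follow it, and TATAA where it lies in the 40 to 21 bases before the start.
SNHG5: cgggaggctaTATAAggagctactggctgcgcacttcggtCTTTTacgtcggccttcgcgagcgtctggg
SNHG12: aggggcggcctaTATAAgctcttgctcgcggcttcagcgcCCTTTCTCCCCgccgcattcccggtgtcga
ZFAS1: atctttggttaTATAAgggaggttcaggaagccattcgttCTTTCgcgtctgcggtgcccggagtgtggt
SNHG7: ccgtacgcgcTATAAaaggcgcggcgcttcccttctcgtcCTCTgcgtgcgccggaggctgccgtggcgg
SNHG1: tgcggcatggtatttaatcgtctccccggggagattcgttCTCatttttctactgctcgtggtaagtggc
SNHG8: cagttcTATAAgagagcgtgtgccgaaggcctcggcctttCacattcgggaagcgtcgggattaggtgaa
GAS5: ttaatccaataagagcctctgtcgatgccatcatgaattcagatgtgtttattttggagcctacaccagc
EPB41L4A-AS1: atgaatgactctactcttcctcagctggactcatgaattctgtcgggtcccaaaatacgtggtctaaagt
These windows lie at chr6:85678704-85678773 (minus strand) for SNHG5, chr1:28581844-28581913 (minus strand) for SNHG12, chr20:49278602-49278671 (plus strand) for ZFAS1, chr9:136728155-136728224 (minus strand) for SNHG7, chr11:62855856-62855925 (minus strand) for SNHG1, chr4:118278722-118278791 (plus strand) for SNHG8, chr1:173869016-173869085 (minus strand) for GAS5 and chr5:112160486-112160555 (plus strand) for EPB41L4A-AS1. For SNHG12 and ZFAS1 the start used lies inside the RefSeq gene span and is not its outermost end.

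A C stood at the start in 6 of the 8 windows, against 14.7% of 35116 RefSeq promoters read the same way. A C with a run of at least 5 pyrimidines was found in 3, SNHG5, SNHG12 and ZFAS1, against 4.07% of all promoters, and the run of SNHG12 was 11 bases long. TATAA on the strand of the gene was present in 5 of the 8, SNHG5, SNHG7, SNHG8, SNHG12 and ZFAS1, against 3.77% of all promoters. The letters CACGTG, the E-box to which MYC with MAX binds, read the same on both strands and were found in the longer RefSeq promoter window of SNHG7 alone, against 7.26% of promoters. The 10 members were chosen as known host genes, so these shares describe them and were not tested. GAS5 and EPB41L4A-AS1 had neither the C nor TATAA at the start that RefSeq lists. For GAS5 that start, at 173869045, lies upstream of the whole GENCODE span, which ends at 173868882 on this minus-strand gene. Its window is therefore not at a GENCODE start, and whether GAS5 has a TOP tract at another start was not examined.

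Total counts per library ranged from 38224144 to 50525926 for QGP-1 and from 15981954 to 28484324 for BON-1, and the 10 members took 0.0219 to 0.0260% and 0.0417 to 0.0581% of them. MUC1, the target of the hairpin, was at 5.65 to 7.19 CPM (counts relative to library size, with TMM factors set within a line) with vehicle and 0.705 to 1.04 with DOX in QGP-1 cells, a log2 fold change of −2.91 (adjusted p = 8.24e-07, edgeR). In BON-1 cells it was at 15.6 to 20.7 CPM with vehicle and 1.48 to 3.97 with DOX, a log2 fold change of −2.79 (adjusted p = 6.51e-11, edgeR). For the cell type markers, CPM was relative to the library total alone, without TMM factors. Of 9 neuroendocrine markers 8 in QGP-1 and 9 in BON-1 cells were above 1 CPM, NEUROD1 being at 0 in QGP-1 cells, where their sum was 5770 to 6491 CPM with vehicle and 6621 to 7193 with DOX, and in BON-1 cells 12527 to 15302 and 9565 to 9998. In BON-1 cells the mean of CHGA was 8204 CPM with vehicle and 2887 with DOX, while that of SCG2 was 2737 and 3626. Of markers of other cell types, 1 of 6 fibroblast, 2 of 6 leukocyte and 1 or 2 of 6 acinar genes passed 1 CPM, and CTRB1 was at 0 in all 4 groups. The fibroblast sum was 1.78 to 3.66 CPM with vehicle and 1.14 to 1.34 with DOX in QGP-1 cells and 5.30 to 6.93 and 10.5 to 11.3 in BON-1 cells. The leukocyte sum, mostly LYZ in QGP-1 and CD68 in BON-1 cells, was 10.5 to 12.7 and 17.3 to 20.7 CPM in QGP-1 cells and 26.5 to 29.3 and 51.2 to 56.1 in BON-1 cells. The acinar sum, nearly all PRSS1, was 82.7 to 149 and 29.4 to 40.7 in QGP-1 cells and 36.6 to 47.8 and 19.3 to 26.7 in BON-1 cells, and the part of these shifts in the results below was not tested.

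The unit of the values decides the sign of several results on these genes. The abundant small RNAs RN7SK, RN7SL1 and RN7SL2 made up much of the deposited TPM totals, with 78.8 to 80.3% with vehicle and 71.2 to 75.4% with DOX in QGP-1 cells, and 50.9 to 65.6% and 53.4 to 74.3% in BON-1 cells, against at most 6.38% of the counts. On log2(TPM + 1) the median fold change of all genes moved to 0.59 in QGP-1 and −0.31 in BON-1 cells, whereas it was −0.01 in both lines on TMM-scaled counts. Results are therefore given on counts, and on TPM relative to that median. Of all genes called by edgeR, 49.4% in QGP-1 and 48.2% in BON-1 cells were higher with DOX, whereas on TPM these shares were 99% and 11.2%, and on TPM centred on the median of each library 38.3% and 49.4%. For the difference in response between the lines, 52.6% of calls were higher in BON-1 cells with TMM and 38.1% with library size alone.

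The first question was whether silencing MUC1 changed these transcripts in QGP-1 cells. GAS5 and ZFAS1 fell, to 0.755 and 0.744 of their level with vehicle, and SNHG15 rose 1.42-fold, while the other members did not pass the test. Thus 1 of the 10 members was higher, against 17.3% of the 15089 genes tested, and 2 were lower, against 17.7% of those genes (edgeR quasi-likelihood test, adjusted p under 0.05, no minimum fold). The median log2 fold change of the 10 was −0.03, beside −0.01 for all genes tested. The vehicle and DOX libraries did not overlap for 3 of the 10, GAS5, SNHG8 and SNHG15, against 46.7% of all genes tested. In cell populations such as these, fewer cells with a transcript and less of it per cell cannot be told apart.

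GAS5, on the minus strand of chromosome 1 from 173863901 to 173869045 in RefSeq, has 12 exons in its GENCODE canonical transcript and carries 10 of the snoRNAs with a row in the tables. In QGP-1 cells its level was 53.8, 59.9 and 63.2 CPM in the 3 vehicle libraries and 50.1, 40.2 and 43.2 CPM in the 3 DOX libraries. Each DOX library lay below each vehicle library. The log2 fold change was −0.41 (SE, the standard error, 0.10, adjusted p = 0.00457, edgeR), and on TPM, where the uncentred value was positive at 0.32, it was −0.27 relative to the median of all genes. The call was kept without any 1 of the 6 libraries, with log2 fold changes from −0.49 to −0.34.

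SNHG15, on the minus strand of chromosome 7 from 44983023 to 44986696, is the host of the box H/ACA snoRNA SNORA9. Its level was 18.7, 17.8 and 17.9 CPM with vehicle and 27.3, 24.3 and 26.0 CPM with DOX. The DOX libraries were all higher, and the vehicle libraries differed little among themselves. SNHG15 had the largest rise of the 10 in QGP-1 cells, with a log2 fold change of 0.51 (SE 0.09, adjusted p = 0.000812, edgeR) that ranged from 0.48 to 0.56 without 1 library and was 0.59 relative to the median on TPM.

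ZFAS1, on the plus strand of chromosome 20 from 49278178 to 49289260, starts head to head with ZNFX1 and hosts the SNORD12 family. It was at 25.6, 32.8 and 34.4 CPM with vehicle and at 22.7, 18.6 and 27.8 CPM with DOX. The groups overlapped, as the third DOX library exceeded the first vehicle library. The log2 fold change was −0.43 (SE 0.14, adjusted p = 0.0288, edgeR), −0.31 relative to the median on TPM, where the uncentred value was positive at 0.29. The call was lost in 4 of the 6 fits without 1 library, those without vehicle replicate 2 (adjusted p = 0.109), vehicle replicate 3 (0.0993), DOX replicate 1 (0.0584) or DOX replicate 2 (0.126), all from edgeR.

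Among the members that did not pass the test in QGP-1 cells, SNHG8 came nearest. SNHG8, on the plus strand of chromosome 4 from 118278762 to 118279823, carries SNORA24 and was at 15.0, 19.0 and 19.3 CPM with vehicle and 20.1, 20.3 and 21.4 with DOX. The DOX libraries were all higher, yet the log2 fold change of 0.21 (SE 0.11) had an adjusted p of 0.159 (edgeR). SNHG1, at 47.9, 61.5 and 58.0 CPM with vehicle and 57.9, 54.4 and 55.1 with DOX, had a log2 fold change of −0.0007 (95% interval −0.20 to 0.20, from edgeR). SNHG5 stood at 8.81, 11.8 and 11.5 CPM against 12.1, 10.1 and 11.2 CPM with a log2 fold change of 0.05 (interval −0.23 to 0.34).

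The remaining 4 had wider or similar intervals. SNHG7 was at 9.23, 10.6 and 11.9 CPM with vehicle and 10.6, 12.1 and 11.8 with DOX (log2 fold change 0.11, interval −0.16 to 0.38). EPB41L4A-AS1 was at 7.53, 7.77 and 8.42 against 5.93, 8.39 and 8.64 CPM (−0.05, interval −0.38 to 0.28). These groups overlapped throughout. SNHG12, with 13 to 48 raw counts a library in this line, was at 1.26, 0.949 and 0.764 CPM with vehicle and 0.269, 1.06 and 0.744 with DOX, and its log2 fold change of −0.52 had an interval from −1.56 to 0.51.

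SNHG6, on the minus strand of chromosome 8, hosts the single box C/D snoRNA SNORD87. In QGP-1 cells it was at 31.5, 33.5 and 38.2 CPM with vehicle and 34.7, 26.3 and 31.6 with DOX (log2 fold change −0.16, adjusted p = 0.301, edgeR). In BON-1 cells it was at 41.9, 48.8 and 36.4 CPM with vehicle and 50.2, 44.7 and 47.0 with DOX (log2 fold change 0.16, adjusted p = 0.244, edgeR). The groups overlapped in each line.

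**Figure D1:**
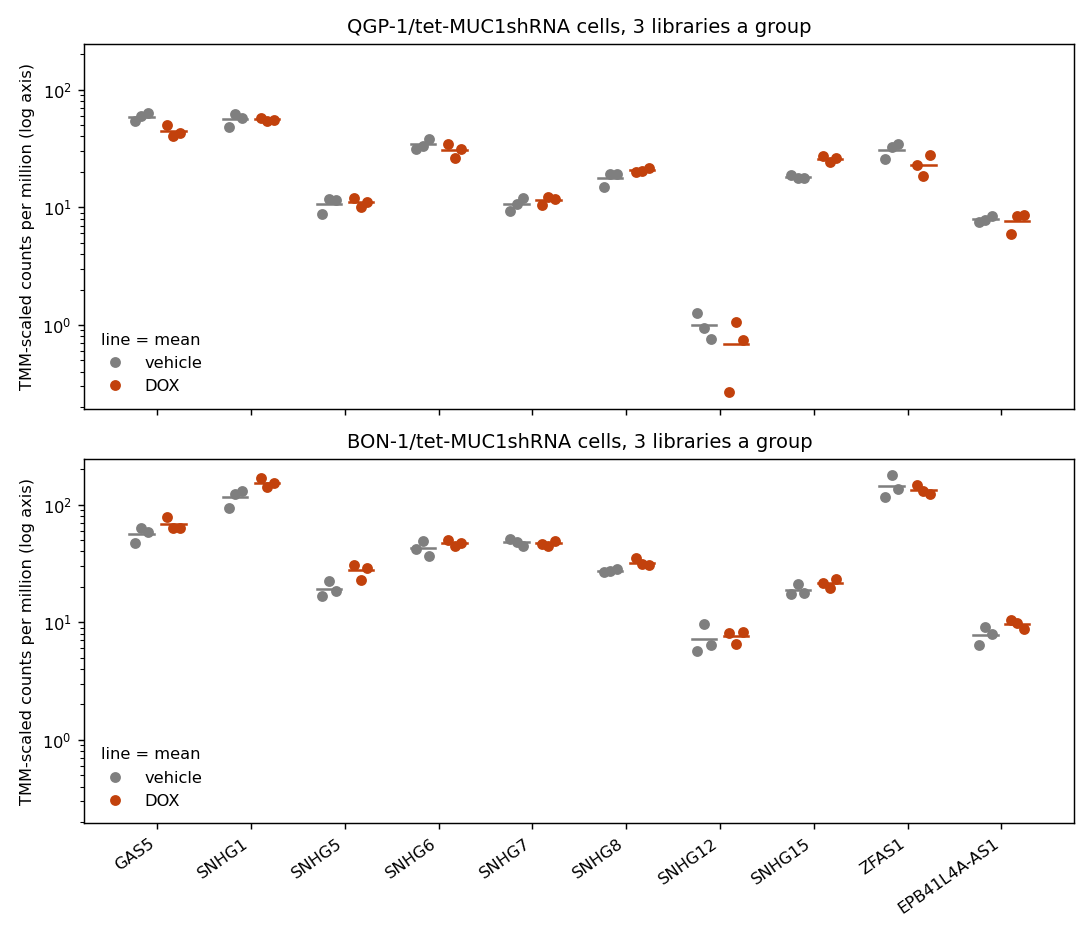
TMM-scaled CPM on a log axis for the 10 host genes in each of the 12 libraries, vehicle in grey and DOX in orange, with the mean of 3 libraries as a line. GAS5 with DOX lies below vehicle in QGP-1 cells, and SNHG1 and SNHG5 with DOX lie above vehicle in BON-1 cells, while SNHG12 is at 0.269 to 1.26 CPM in QGP-1 and 5.68 to 9.67 CPM in BON-1 cells.

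The same question was asked in BON-1 cells, where the called changes were all rises. SNHG5 rose 1.45-fold, SNHG1 1.33-fold and GAS5 1.21-fold with DOX. Thus 3 of the 10 members were higher, against 17% of the 14625 genes tested, and 0 were lower by edgeR, against 18.3% of those genes. For the lower direction the count was also 0 at an unadjusted p under 0.05 and by DESeq2. The median log2 fold change of the 10 was 0.22, beside −0.01 for all genes tested, and the groups did not overlap for 3 members, SNHG1, SNHG5 and SNHG8, against 46.3% of all genes tested. Summed over the 10 members the level was 421, 549 and 483 CPM with vehicle and 596, 514 and 532 with DOX in BON-1 cells, and 219, 256 and 264 against 242, 216 and 237 in QGP-1 cells, with overlapping groups in each line.

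SNHG1, on the minus strand of chromosome 11 from 62851978 to 62855885, was the first transcript of this kind to be described and carries box C/D snoRNAs of the SNORD22 and SNORD25 to SNORD31 series. In BON-1 cells it was at 93.8, 123 and 130 CPM with vehicle and 169, 141 and 151 with DOX. Each DOX library was above each vehicle library. The log2 fold change of 0.42 (SE 0.10, adjusted p = 0.00106, edgeR) lay between 0.28 and 0.50 in the 6 fits without 1 library and was 0.37 relative to the median on TPM. The test was passed on TPM centred in each library (adjusted p = 0.0443, limma) and not on uncentred TPM.

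SNHG5, on the minus strand of chromosome 6 from 85677007 to 85678733, hosts SNORD50A and SNORD50B. Its level was 16.6, 22.3 and 18.3 CPM with vehicle and 30.7, 22.9 and 29.1 with DOX. The groups did not overlap, though the second vehicle and the second DOX library lay close together. The log2 fold change was 0.53 (SE 0.13, adjusted p = 0.00198, edgeR), from 0.43 to 0.66 without 1 library and 0.48 relative to the median on TPM. Here too centred TPM passed the test (adjusted p = 0.0245, limma) and uncentred TPM did not.

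GAS5 went up in BON-1 cells, the opposite of its direction in QGP-1 cells. It was at 47.0, 63.5 and 58.0 CPM with vehicle and 77.7, 63.2 and 63.1 with DOX. The groups overlapped, as 1 vehicle library exceeded 2 of the DOX libraries by a small margin. The log2 fold change was 0.28 (SE 0.10, adjusted p = 0.0376, edgeR), 0.23 relative to the median on TPM, where the uncentred value was −0.08. This call was lost without vehicle replicate 1 (log2 fold change 0.16, adjusted p = 0.264), vehicle replicate 3 (0.29, adjusted p = 0.0735) or DOX replicate 1 (0.16, adjusted p = 0.304), all from edgeR, and with library size alone, with a minimum of 10 counts in every library, in the fit of both lines together and on TPM, centred (adjusted p = 0.173, limma) or not.

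The 6 other members of BON-1 cells gave values on either side of no change. SNHG8 was at 26.6, 27.1 and 28.2 CPM with vehicle and 34.9, 31.2 and 30.3 with DOX, without overlap, and its log2 fold change of 0.23 had an adjusted p of 0.0811 (edgeR). EPB41L4A-AS1, on the plus strand of chromosome 5 from 112160526 to 112162501 and host of SNORA13, was at 6.43, 9.09 and 8.0 against 10.5, 9.88 and 8.70 CPM (log2 fold change 0.31, interval −0.05 to 0.67). SNHG15, which had risen in QGP-1 cells, was at 17.3, 21 and 17.7 against 21.4, 19.6 and 23.3 CPM (0.20, interval −0.05 to 0.46). The last 2 overlapped between groups.

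SNHG12, on the minus strand of chromosome 1 from 28578538 to 28582983, was at 5.68, 9.67 and 6.33 CPM with vehicle and 8.15, 6.50 and 8.19 with DOX (log2 fold change 0.08, interval −0.34 to 0.49). SNHG7, on the minus strand of chromosome 9 from 136724594 to 136728184, was at 51.0, 47.8 and 44 against 46.4, 44.7 and 49.3 CPM (−0.03, interval −0.21 to 0.16). ZFAS1 was at 115, 177 and 137 against 147, 130 and 122 CPM (−0.10, interval −0.32 to 0.11). All 3 overlapped.

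**Figure D2:**
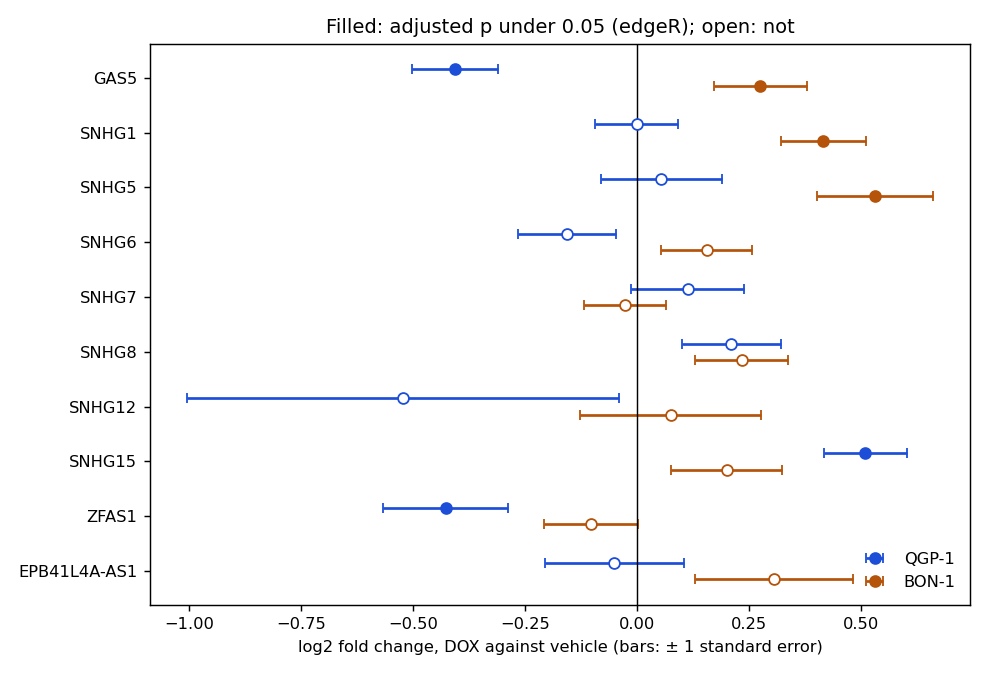
Log2 fold change with DOX against vehicle for the 10 host genes (x axis, bars 1 SE from edgeR) in QGP-1 cells (blue) and BON-1 cells (brown), filled where the adjusted p was under 0.05. GAS5 lies at −0.41 in QGP-1 and 0.28 in BON-1 cells, on counts; on uncentred TPM values both signs flip.

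A model of all 12 libraries with a term for line, a term for DOX and their interaction tested whether the lines responded alike. GAS5 and SNHG1 responded differently, both more towards a rise in BON-1 cells. These were 2 of 10 members higher, against 8.8% of the 16598 genes tested, and 0 lower by edgeR, against 7.92%, with 0 lower also at an unadjusted p under 0.05 and by DESeq2. Subtracting the QGP-1 from the BON-1 log2 fold change gave 0.69 for GAS5 (SE 0.15, adjusted p = 0.00279, edgeR) and 0.43 for SNHG1 (SE 0.14, adjusted p = 0.0440, edgeR). The GAS5 difference was called without any 1 of the 12 libraries, from 0.56 to 0.78.

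The SNHG1 difference was less firm, since it lost its call in 10 of the 12 fits without 1 library, with values from 0.28 to 0.52, and with a replicate block (adjusted p = 0.0565, edgeR). The lines were not shown to differ for SNHG5, called in BON-1 cells alone (difference 0.49, SE 0.20, adjusted p = 0.102, edgeR), although without QGP-1 vehicle replicate 1 it passed (0.60, adjusted p = 0.0437, edgeR). The same held for the genes called in QGP-1 cells alone, SNHG15 with a difference of −0.30 (adjusted p = 0.210, edgeR) and ZFAS1 with 0.34 (adjusted p = 0.256, edgeR). SNHG8, close to equal in both lines, differed by 0.03 with an interval from −0.28 to 0.35. For the other 4 the differences ran from −0.13 for SNHG7 to 0.61 for SNHG12, whose interval of −0.34 to 1.57 was the widest.

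The level of the host genes with vehicle was then compared between the lines, on CPM scaled over the 12 libraries together. BON-1 cells held more of 6 of the 10 members, against 37.5% of the 16598 genes tested, and less of 0 by edgeR, against 37.5% of genes in that direction, with 0 also at an unadjusted p under 0.05 and by DESeq2. SNHG12 was 6.95-fold higher, ZFAS1 4.37-fold, SNHG7 4.25-fold, SNHG1 1.95-fold, SNHG5 1.69-fold and SNHG8 1.45-fold. The same 6 had no overlap between the vehicle groups, against 77.6% of all genes tested. This contrast and the difference in response share the vehicle libraries of both lines.

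SNHG12 was at 0.784 to 1.29 CPM in QGP-1 and 5.57 to 9.40 CPM in BON-1 cells with vehicle, a log2 difference of 2.80 (SE 0.32, adjusted p = 2.50e-08, edgeR). ZFAS1 was at 26.3 to 35.3 CPM in QGP-1 and 113 to 172 in BON-1 cells (2.13, SE 0.14, adjusted p = 7.76e-13, edgeR). SNHG7 was at 9.47 to 12.2 CPM in QGP-1 and 42.3 to 50.1 in BON-1 cells (2.09, SE 0.11, adjusted p = 1.20e-14, edgeR). In these 3 the lowest BON-1 library stood far above the highest QGP-1 library, and the gap exceeded any response to DOX among the 10 members.

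SNHG1 was at 49.1 to 63.1 CPM in QGP-1 and 92.0 to 124 in BON-1 cells, SNHG5 at 9.04 to 12.1 and 16.3 to 21.7, and SNHG8 at 15.4 to 19.8 and 26.1 to 27.1. The 4 members without a call were GAS5 at 55.2 to 64.9 CPM in QGP-1 and 46.1 to 61.8 in BON-1 cells, SNHG15 at 18.3 to 19.2 and 16.9 to 20.4, EPB41L4A-AS1 at 7.72 to 8.64 and 6.31 to 8.84, and SNHG6 at 32.3 to 39.2 and 35 to 47.5. The ranges of these 4 overlapped between the lines. For SNHG6 the log2 difference of 0.22 (adjusted p = 0.0793, edgeR) passed the test in 3 of the 7 other settings, such as the fit of the 6 vehicle libraries alone (0.26, adjusted p = 0.0348, edgeR).

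**Figure D3:**
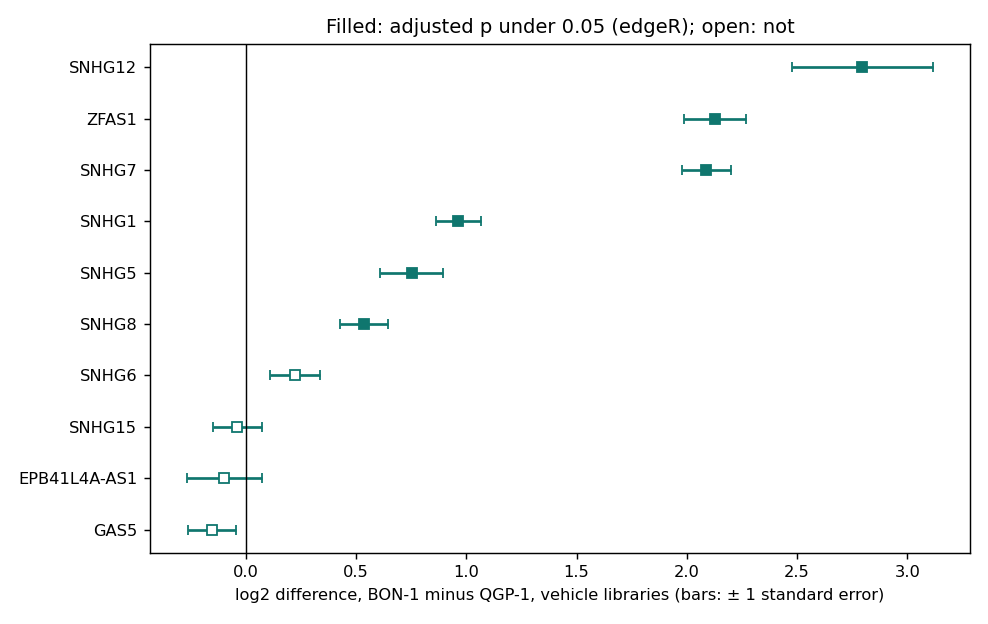
Log2 difference of the level with vehicle, BON-1 minus QGP-1, for the 10 host genes (x axis, bars 1 SE from edgeR), filled where the adjusted p was under 0.05. SNHG12, ZFAS1 and SNHG7 lie at 2.09 to 2.80, apart from the other members, which lie between −0.15 and 0.96.

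Levels of different genes were compared per length, with the deposited TPM values. In QGP-1 cells with vehicle SNHG6 (66.3 ± 2.36 TPM, SD, n = 3) and GAS5 (60.4 ± 0.725) led, followed by SNHG1 (23.5 ± 2.06), SNHG8 (18.9 ± 1.47), SNHG5 (17.2 ± 1.78), ZFAS1 (14.6 ± 1.28), SNHG15 (12.4 ± 1.24), EPB41L4A-AS1 (3.06 ± 0.0802), SNHG7 (1.55 ± 0.0840) and SNHG12 (0.191 ± 0.0624). The ranges of neighbours overlapped for SNHG8 and SNHG5, SNHG5 and ZFAS1, and ZFAS1 and SNHG15. Compared within each library, SNHG8 was above SNHG5 in 3 of 3 (mean log2 ratio 0.13, SD 0.04). SNHG5 was above ZFAS1 in 3 of 3 (0.24, SD 0.06). ZFAS1 was above SNHG15 in 2 of 3 (0.23, SD 0.27), so that the order of this last pair was within the spread. In BON-1 cells the order began with SNHG6 (206 ± 68.1 TPM, SD, n = 3), ZFAS1 (174 ± 73.1), GAS5 (146 ± 49.9) and SNHG1 (124 ± 39.3). Then came SNHG5 (78.4 ± 28.2), SNHG8 (72.5 ± 15.1), SNHG15 (32.2 ± 10.0), SNHG7 (17.4 ± 3.36), EPB41L4A-AS1 (7.75 ± 2.82) and SNHG12 (3.57 ± 1.78). The ranges of the first 6 overlapped from each neighbour to the next, as did those of the last pair. Compared within each library, the higher gene of each such pair was above in 3 of 3. The exception was SNHG5, above SNHG8 in 1 of 3 (mean log2 ratio 0.07, SD 0.22). TPM levels are not compared between the lines, since the RN7 share differed.

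That order depends on the gene lengths behind TPM, which the study does not state. From counts and TPM the length used for SNHG7 came out at 7.0 times and that for SNHG12 at 5.39 times the length of GAS5, whereas SNHG6 and SNHG5 came out at 0.531 and 0.633 times. With the length of the GENCODE canonical transcript, an alternative chosen after seeing the data, GAS5 ranked first in QGP-1 and SNHG1 in BON-1 cells, and 9 of the 10 members changed rank in each line. SNHG12 remained last in QGP-1 cells with each of the lengths tried.

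Other genes of the pathway were set beside the 10 members. In BON-1 cells 6 of 16 other noncoding host genes tested rose and 2 fell, and in QGP-1 cells 1 of 15 rose and 1 fell. Over all genes tested 17% were higher and 18.3% lower in BON-1 cells, and 17.3% and 17.7% in QGP-1 cells, so that the 2 falls in BON-1 cells were not above that share. Their median log2 fold change was 0.30 in BON-1 and 0.05 in QGP-1 cells, beside −0.01 for all genes in each line. SNHG32 was the only gene of this list higher in both lines, at 26.2, 24.9 and 27.6 CPM with vehicle and 32.6, 36.0 and 37.2 with DOX in QGP-1 cells (log2 fold change 0.43, adjusted p = 0.00216, edgeR) and at 51.9, 52.9 and 47.8 against 71.2, 60.3 and 54.3 CPM in BON-1 cells (0.28, adjusted p = 0.0238, edgeR). RefSeq places a snoRNA inside 15 of the 18 genes listed, all but SNHG10, SNHG20 and SNHG21.

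The other calls of this list were made in QGP-1 or in BON-1 cells alone, which by itself does not show that the lines differ. SNHG29, a host of several snoRNAs, was at 599, 628 and 671 CPM with vehicle and 363, 328 and 372 with DOX (log2 fold change −0.84, adjusted p = 1.84e-06, edgeR), and in BON-1 cells at 511, 567 and 613 against 610, 508 and 522 CPM (−0.04, adjusted p = 0.728, edgeR). SNHG3, host of H/ACA snoRNAs, was at 77.2, 100 and 95.0 CPM with vehicle and 168, 138 and 167 with DOX in BON-1 cells (0.80, adjusted p = 1.12e-07, edgeR). DANCR, a host gene with a part in keeping cells undifferentiated, was at 73.6, 75.2 and 80.5 against 120, 115 and 119 CPM in BON-1 cells (0.63, adjusted p = 3.55e-07, edgeR). In these the DOX and vehicle libraries were apart except for SNHG29 in BON-1 cells. SNHG19 (1.07), SNHG30 (0.48) and SNHG10 (0.41) also rose in BON-1 cells, and MEG8 (−1.69) and SNHG14 (−0.32) fell. The test of the difference between lines passed for SNHG29, SNHG3, DANCR, SNHG19 and MEG8 (adjusted p = 3.69e-05, 0.00634, 0.00335, 0.0118 and 0.000149, edgeR). The lines were not shown to differ for SNHG10 (−0.03, adjusted p = 0.976) or SNHG30 (0.27, adjusted p = 0.510), both from edgeR. SNHG14 did not pass the filter on low counts in QGP-1 cells. With vehicle its level was higher in BON-1 cells by 12.2 on the log2 scale. Its difference in response (−0.68, interval −2.88 to 1.51, adjusted p = 0.726, edgeR) therefore could not test a response in QGP-1 cells. SNHG29 and the BON-1 calls are named here after their values were seen.

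The protein-coding host genes listed are mostly ribosomal proteins and translation factors. Of 40 tested, 24 were lower and 4 higher in QGP-1 cells, with a median log2 fold change of −0.38, and 8 were lower and 6 higher in BON-1 cells, with a median of −0.12. Over all genes tested, 17.3% were higher and 17.7% lower in QGP-1 cells, and 17% and 18.3% in BON-1 cells. The BON-1 counts were near these shares. In the test of the difference between lines 17 of the 40 were higher and 4 lower in BON-1 cells, against 8.8% and 7.92% of all genes. The median difference was 0.31, beside 0.35 for the 10 members. RefSeq places a snoRNA inside each of the 41 genes listed. RPSA, a protein of the small ribosomal subunit, was at 334, 296 and 334 CPM with vehicle and 183, 159 and 158 with DOX in QGP-1 cells (log2 fold change −0.95, adjusted p = 1.20e-06, edgeR) and at 277, 243 and 253 against 189, 178 and 166 in BON-1 cells (−0.54, adjusted p = 4.15e-06, edgeR). RPS3, another protein of the small subunit, fell by 1.04 and by 0.41 on the log2 scale in the 2 lines, and RPL10 and RPLP2 of the large subunit by 0.42 and 0.49, and by 0.61 and 0.72. Ribosomal protein genes have many processed pseudogenes, and the treatment of reads with several matches is not given in the sources used here, so their counts are uncertain to that extent. By contrast TAF1D, a host gene that encodes a factor of RNA polymerase I transcription, differed by −0.16 in QGP-1 (adjusted p = 0.220, edgeR) and rose by 0.70 in BON-1 cells (adjusted p = 1.80e-07, edgeR), and was picked after its values were seen.

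Proteins that bind and assemble snoRNAs were called in both directions. NOP56 and DKC1 are counted here and also among the protein-coding host genes. Of 19 snoRNP proteins and assembly factors 5 were higher and 4 lower in QGP-1 cells, and 2 were higher and 5 lower in BON-1 cells, with medians of 0.10 and −0.03, where 17 to 18.3% of all genes were called in each direction and line. ZNHIT6, a box C/D assembly factor, was at 60.6, 50.2 and 53.3 CPM with vehicle and 83.8, 89.7 and 83.5 with DOX in QGP-1 cells (log2 fold change 0.65, adjusted p = 5.56e-05, edgeR) and at 75.7, 64.4 and 67.4 against 87.1, 91.3 and 104 in BON-1 cells (0.44, adjusted p = 0.000227, edgeR). GAR1, a core protein of H/ACA particles, also rose in both lines (0.66 and 0.44), and PIH1D1 and RUVBL2, parts of the R2TP chaperone, fell in both (−0.55 and −0.59 for PIH1D1, −0.41 and −0.61 for RUVBL2). The other R2TP subunits did not follow in QGP-1 cells, where RPAP3 rose (0.23, adjusted p = 0.0196, edgeR) and RUVBL1 had −0.06 (adjusted p = 0.599, edgeR). In BON-1 cells RUVBL1 fell (−0.77, adjusted p = 1.16e-06, edgeR) and RPAP3 had −0.16 (adjusted p = 0.168, edgeR). FBL, the methyltransferase of box C/D particles, had values of 0.003 in QGP-1 (adjusted p = 0.983, edgeR) and −0.49 in BON-1 cells (adjusted p = 0.000111, edgeR).

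Factors of nonsense-mediated decay, the pathway that removes spliced host transcripts, were the last list. Of 19 tested, 8 were higher and 1 lower in QGP-1 cells (median log2 fold change 0.14), and 1 was higher and 5 lower in BON-1 cells (median −0.07). The shares over all genes were 17.3% higher and 17.7% lower in QGP-1 cells, and 17% and 18.3% in BON-1 cells. In the test of the difference between lines 1 of the 19 was higher and 6 were lower in BON-1 cells, against 8.8% and 7.92% of all genes. SMG1, the kinase of UPF1, had a log2 fold change of 0.52 in QGP-1 (adjusted p = 0.000304, edgeR) and 0.09 in BON-1 cells (adjusted p = 0.375, edgeR). UPF1, the helicase at the centre of the pathway, had values of 0.04 (adjusted p = 0.830, edgeR) and −0.15 (adjusted p = 0.179, edgeR). SMG9, a partner of SMG1, was the only gene of this list called the same way in both lines, at −0.38 (adjusted p = 0.0324, edgeR) and −0.29 (adjusted p = 0.0470, edgeR).

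**Figure D4:**
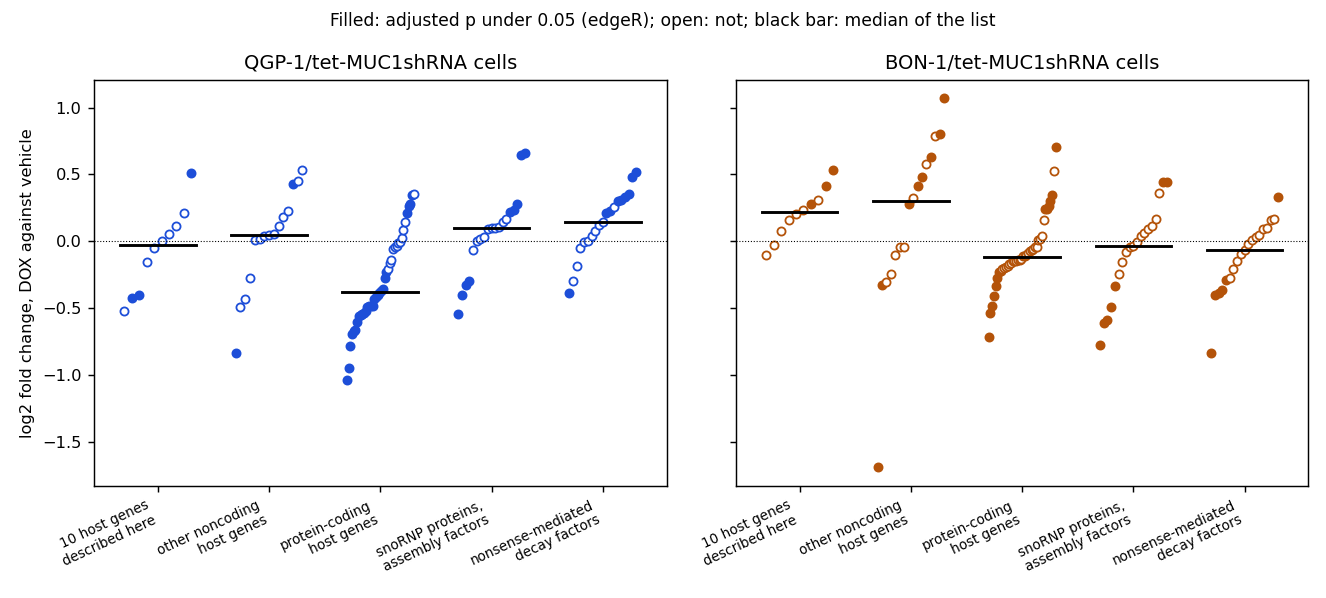
Log2 fold change with DOX against vehicle (y axis) for each gene tested of 5 lists in QGP-1 cells (left) and BON-1 cells (right), sorted within a list, filled where the adjusted p was under 0.05 (edgeR), with the median as a black bar. The median of the protein-coding host genes lies at −0.38 in QGP-1 and −0.12 in BON-1 cells, and that of the 10 host genes at −0.03 and 0.22. NOP56 and DKC1 appear both among the protein-coding host genes and among the snoRNP proteins.

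The snoRNAs inside the members had few counts of their own, in libraries made with a kit that selects mRNA, whereas mature snoRNAs carry no poly(A) tail. Of 35 snoRNA names looked up, 33 had rows, and 4 of these were at 0 in every library. For each of the 5 hosts with a call in either line, the snoRNA with the most counts is printed here, so that host and snoRNA can be read side by side. Sequences are from GRCh38 at the RefSeq position, 5′ to 3′ on the strand of the host, with TGATGA and the last CTGA in capitals for box C/D snoRNAs and the last ACA in capitals for the H/ACA snoRNA.
SNORD80: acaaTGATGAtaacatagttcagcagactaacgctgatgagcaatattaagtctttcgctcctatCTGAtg
SNORD25: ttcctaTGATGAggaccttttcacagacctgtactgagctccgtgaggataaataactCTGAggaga
SNORD50B: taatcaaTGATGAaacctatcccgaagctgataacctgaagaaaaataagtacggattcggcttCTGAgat
SNORD12: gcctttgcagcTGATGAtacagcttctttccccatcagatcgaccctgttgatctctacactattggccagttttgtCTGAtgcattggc
SNORA9: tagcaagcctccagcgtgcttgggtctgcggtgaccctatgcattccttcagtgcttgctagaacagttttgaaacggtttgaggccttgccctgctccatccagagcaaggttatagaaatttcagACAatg
They lie at chr1:173864833-173864903 (minus strand) for SNORD80 in GAS5, chr11:62855565-62855631 (minus strand) for SNORD25 in SNHG1, chr6:85677589-85677659 (minus strand) for SNORD50B in SNHG5, chr20:49280683-49280772 (plus strand) for SNORD12 in ZFAS1 and chr7:44985378-44985510 (minus strand) for SNORA9 in SNHG15.

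SNORD80 had the most counts of the 33, with 142 to 255 in the QGP-1 and 101 to 191 in the BON-1 libraries. Ranges in this paragraph span vehicle and DOX libraries together, so that no response to DOX can be read from them. The 10 snoRNA rows of GAS5 summed to 11.4 to 18.4% of the counts of GAS5 in QGP-1 and 19.8 to 23.8% in BON-1 cells. For SNHG1 these shares were 4.30 to 8.68% and 4.21 to 8.02%, for ZFAS1 3.04 to 9.78% and 3.28 to 7.11%, for SNHG5 1.55 to 3.26% and 1.67 to 7.17%, and for SNHG15 2.38 to 5.19% and 4.94 to 10.8%. SNHG12 stood out, since its snoRNA rows, nearly all SNORA16A with 29 to 50 counts in QGP-1 and 90 to 186 in BON-1 libraries, came to 62.5 to 377% and 72.0 to 122% of the counts of the host. The rows of SNORA17A and SNORA17B, inside SNHG7, were at 0 throughout, and whether reads of a host that overlap a snoRNA were given to either is not stated in the sources used here.

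Other genes overlap exons of the members in GENCODE. On the opposite strand these include GAS5-AS1 for GAS5, MCMDC2 for SNHG6, DIPK1B for SNHG7, PRSS12 for SNHG8, TRNAU1AP for SNHG12, ZNFX1 for ZFAS1 and EPB41L4A for EPB41L4A-AS1. The libraries were stranded, but whether the counting used the strand is not given in the sources used here, so reads of these partners cannot be told apart from those of the members if it did not. SNHG5 also shares 799 exonic bases of its canonical transcript with a protein-coding gene model on the same strand. No overlap of this kind was found for SNHG1 and SNHG15.

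Across the 12 libraries, after centring each line on its own mean of log2 CPM, the members varied together to different degrees. SNHG1 and SNHG5 had a Pearson r of 0.90, and GAS5 one of 0.73 with SNHG6 and 0.70 with ZFAS1, whereas GAS5 and SNHG15 had −0.27. The r of a member with the mean of the other 9 ran from 0.02 for SNHG15, 0.05 for SNHG7 and 0.08 for SNHG12 to 0.77 for EPB41L4A-AS1. Over the same libraries the 5 other genes most like the mean of the 10 members were ZNF767P (r = 0.95), TRAPPC4 (0.94), RPS12 (0.93), LUCAT1 (0.92) and ABRACL (0.92), of which RPS12, a ribosomal protein gene, is a snoRNA host too. These values describe the 12 libraries, which share their depth and scaling, and ZNF767P, RPS12 and ABRACL were higher with DOX in BON-1 cells (log2 fold changes 0.62, 0.30 and 0.46). LUCAT1 did not pass the filter on low counts in BON-1 cells and was not tested there.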

How the data were processed

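RNA-seq libraries from 12 cultures were made with a stranded kit that selects mRNA. The authors aligned reads with STAR to GRCh38/hg38 and deposited raw counts and TPM values per gene, with separate tables for QGP-1 and BON-1. The STAR version, the counter, its use of strand and the gene lengths behind TPM are not given in the sources used here. The TPM tables lack 2468 genes of the QGP-1 and 2464 of the BON-1 count table. Groups were taken from sample labels, and 0 sample columns went unused.

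Counts were tested in each line with the quasi-likelihood test of edgeR 4.0.16 in R 4.3.3 after its default filter on low counts and TMM scaling, with Benjamini-Hochberg adjustment over all genes and a threshold of 0.05. Both lines were fitted together for the interaction and for the levels with vehicle. Intervals use the degrees of freedom of that test. Alternatives used DESeq2 1.42.0, limma 3.58.1 on log2(TPM + 1) (minimum mean TPM 1) or on log2(TPM + 0.1), other scalings and filters, a replicate block, and leaving out each library. Those on GENCODE lengths were chosen after seeing the data. The test was also run on simulated counts with fold changes larger than any response of a member to DOX. That run does not show how often changes of the members' size are found. With 3 libraries a group, an exact two-sided permutation test of a single value cannot go below 0.1, so only the fits across all genes are used. Labels give 3 replicates a group, and the study states that cells were cultured in triplicate. The p-values measure the spread between these cultures.

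The members and lists were chosen with earlier results of these data known. Named genes were the 10 members, MUC1, up to 4 genes of each list called the same way in both lines, genes whose role the text explains, and the 5 genes most like the members' mean. snoRNA rows are given as levels only. Some genes that overlap the members are not reported here.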

Additional observations from a re-analysis of the deposited data

Results flagged for a closer look

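The response to DOX differed between the lines in a test of the difference itself for GAS5 and SNHG1. Such a difference was not particular to these members. Of 40 protein-coding host genes tested, 17 were higher and 4 lower in BON-1 cells, against 8.8% and 7.92% of all genes (edgeR). For GAS5 the BON-1 minus QGP-1 difference of log2 fold changes was 0.69 (adjusted p = 0.00279, edgeR), with −0.41 in QGP-1 and 0.28 in BON-1 cells. For SNHG1 it was 0.43 (adjusted p = 0.0440, edgeR), with −0.0007 in QGP-1 and 0.42 in BON-1 cells. The SNHG1 call was lost in 10 of 12 fits without 1 library (differences 0.28 to 0.52) and in 3 of 6 other settings, RLE factors, library size alone and the replicate block (adjusted p = 0.0504 to 0.124, edgeR).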

How the results depend on the processing

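Depth limits SNHG12 in QGP-1 cells, at 13 to 48 counts a library, and most snoRNA rows. Of all values recomputed, 609 kept their direction and call, 37 lost a call, 17 gained one and 64 turned direction.

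On TPM the 3 calls among members in QGP-1 cells became 9 with log2(TPM + 1), 8 with log2(TPM + 0.1) and 7 without a filter, and the 3 calls in BON-1 cells became 0 in each of these. On counts (edgeR), 0 of the calls in either line exceeded an absolute log2 fold change of 1, while 3 and 2 calls were made on centred TPM (limma). Without 1 library the counts were 2 to 3 in each line, 1 to 3 for the interaction and 6 to 7 for the levels with vehicle.

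With log2(TPM + 1) in QGP-1 cells, filtered or not, the log2 fold changes were 0.32 for GAS5, 0.72 for SNHG1, 0.57 for SNHG6, 0.29 for ZFAS1 and 0.54 for EPB41L4A-AS1, and 0.041 for SNHG12 without a filter. With log2(TPM + 0.1) they were 0.33, 0.74, 0.57, 0.30 and 0.66. Centred TPM gave −0.072 for SNHG7 and 0.066 for SNHG1, and the ZFAS1 call was lost (adjusted p = 0.0616, limma). In BON-1 cells log2(TPM + 1), filtered or not, gave −0.085 for GAS5, −0.20 for SNHG6, −0.13 for SNHG8, −0.20 for SNHG12, −0.16 for SNHG15 and −0.048 for EPB41L4A-AS1, and log2(TPM + 0.1) gave −0.085, −0.20, −0.13, −0.25, −0.16 and −0.050.

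SNHG1 in QGP-1 cells was 0.0014 with DESeq2, 0.0020 with RLE factors, 0.014 with library size alone, 0.0048 without a filter and 0.0065 with the replicate block. Library size alone gave −0.039 for the SNHG8 interaction and, with vehicle, 0.071 for SNHG15 and 0.015 for EPB41L4A-AS1, and a minimum of 10 counts gave 0.0039 for SNHG15. The interaction calls fell from 2 to 1 with RLE factors, with library size alone and with the replicate block, in each case by SNHG1. The GAS5 call in BON-1 cells was lost with library size alone (adjusted p = 0.122), a minimum of 10 counts (0.0534) and both lines in 1 fit (0.0532), all edgeR, and on centred TPM (0.173, limma). The causes were not tested.

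Without 1 library the sign turned for SNHG1 (−0.098 to 0.074), SNHG5 (−0.064 to 0.13) and EPB41L4A-AS1 (−0.15 to 0.11) in QGP-1 cells, for SNHG7 (−0.088 to 0.026), SNHG12 (−0.083 to 0.34) and ZFAS1 (−0.24 to 0.073) in BON-1 cells, for the SNHG8 interaction (−0.047 to 0.14) and, with vehicle, for SNHG15 (−0.14 to 0.0054) and EPB41L4A-AS1 (−0.23 to 0.023). None of these passed the test with all libraries.

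By TPM of the DOX libraries 2 members in QGP-1 and 3 in BON-1 cells changed rank, by canonical length 9 and 9, and by all GENCODE exons 8 and 9. Labels give the same replicate numbers to each group, but deviations of same-numbered libraries correlated at −0.0138 to 0.0391 in QGP-1 and −0.00605 to 0.0430 in BON-1 cells, and not every library correlated best with its own number, so the replicate block was not used for the results above.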
